A study of Saccharomyces cerevisiae and Saccharomyces cerevisiae x Saccharomyces paradoxus and Saccharomyces cerevisiae x Saccharomyces mikatae with 18 samples.

Results

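The divergence in expression between *Saccharomyces mikatae* and *S. cerevisiae* was divided, gene by gene, into the share seen between the 2 alleles of a hybrid and the share seen only between the species. The expression ratio of S. mikatae over S. cerevisiae homozygotes (P, total divergence) was set beside the ratio of the S. mikatae over the S. cerevisiae allele in the hybrid of the species (C, the *cis* part), and the difference P minus C was taken as the *trans* part (T), all in log2. The genes were all those of the deposited tables, and the samples were 6 of the 18 libraries of the series: 2 of the S. mikatae homozygote, 2 of the S. cerevisiae homozygote (replicates 3 and 4 of 6) and 2 of the hybrid, in which each read had been assigned to an allele. Of 4730 genes in the files, 4559 had a mean scaled score of at least 10 over the 8 columns (4 homozygote, 4 allele) and were tested.

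The S. mikatae homozygote was strain IFO 1815. The S. cerevisiae homozygote was YHL068, a cross of BY4741 with BY4716 heterozygous for deletions at LYS2, LEU2, HIS3, MET17 (met15) and URA3. The hybrid was YYM030, from S. cerevisiae BY4716, which lacks LYS2, and S. mikatae JRY9175, which carries a his3 deletion. Cultures were grown in rich medium (YPD) at 25 °C and harvested in log phase. Each species was thus represented by 1 background, and the S. mikatae parent of the hybrid is listed under another strain name than the homozygote, so that a difference between species, between strains and between marker deletions cannot be told apart.

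A *cis*-acting difference lies on the DNA molecule of the gene itself, in its promoter or its transcript. Inside the hybrid both alleles meet the same transcription factors, so a *cis* difference persists between them. A *trans*-acting difference works through a diffusible product, such as a regulator or a signal, which reaches both alleles of the hybrid alike, so the alleles are level there even where the parental species differ. The 2 parts may point the same way (reinforcing) or in opposite directions (opposing), and where they cancel, the species look alike although their alleles do not.

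Stretches of S. cerevisiae DNA from 250 to 101 bases before the start codon are shown for 6 genes, with the R64 build of the RefSeq genome as the source. The first 2 belong to genes whose species ratio was nearly the same in homozygotes and hybrid: CTR3 (a high-affinity copper transporter of the plasma membrane, chrXII:947003-947152, plus strand) and HOR7 (a small protein induced by osmotic stress, chrXIII:774502-774651, plus strand). Capitals mark TATAAA, the core of a TATA box, or its complement.
CTR3: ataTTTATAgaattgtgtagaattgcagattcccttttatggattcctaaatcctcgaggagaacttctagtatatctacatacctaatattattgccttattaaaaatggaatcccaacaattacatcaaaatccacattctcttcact
HOR7: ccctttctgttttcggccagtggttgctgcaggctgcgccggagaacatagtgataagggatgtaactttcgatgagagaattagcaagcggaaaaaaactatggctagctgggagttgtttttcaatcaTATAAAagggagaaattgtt
The other 4 belong to the respiratory and phosphate lists described below. In 3 of them T was called only with the spread from all 18 libraries of the series, and in COX6 it was called in neither fit. COX6 (chrVIII:209455-209604, plus strand), COX5A (chrXIV:531475-531624, plus strand) and COX8 (chrXII:910066-910215, minus strand) encode subunits of cytochrome c oxidase, and capitals mark CCAAT, the element bound by the Hap complex, or its complement ATTGG. VTC1 (chrV:302556-302705, plus strand) encodes a subunit of the vacuolar enzyme that makes polyphosphate, and capitals mark CACGTG, the core bound by the phosphate regulator Pho4 and by Cbf1.
COX6: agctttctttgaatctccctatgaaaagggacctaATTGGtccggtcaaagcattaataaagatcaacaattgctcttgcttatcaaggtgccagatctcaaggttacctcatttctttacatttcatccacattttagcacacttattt
COX5A: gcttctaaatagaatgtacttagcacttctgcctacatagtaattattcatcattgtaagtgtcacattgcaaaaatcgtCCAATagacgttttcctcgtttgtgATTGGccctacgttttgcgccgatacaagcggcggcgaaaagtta
COX8: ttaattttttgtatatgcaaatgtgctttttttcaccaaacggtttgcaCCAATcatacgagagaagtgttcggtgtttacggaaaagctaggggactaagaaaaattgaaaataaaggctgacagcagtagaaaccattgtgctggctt
VTC1: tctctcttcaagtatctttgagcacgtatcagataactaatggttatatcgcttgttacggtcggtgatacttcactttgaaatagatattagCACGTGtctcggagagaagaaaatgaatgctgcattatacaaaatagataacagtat
A match to these letters is a description of the S. cerevisiae sequence and not evidence of binding.

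Totals of the deposited scores, which are sums of reads weighted for GC content, lay between 5715652 and 6627538 in the 4 homozygote libraries, between 5377887 and 5736263 in the 2 hybrid libraries and between 2538407 and 2986880 for single alleles. Replicates correlated across genes at r = 0.899 to 0.913 on the log2 scale, and the SD of the difference between replicates was 0.977 to 1.03. Below, a level is the score after scaling by the upper quartile of its column. Replicates were biological, per the study's methods.

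One set of genes stood apart from all others in the hybrid, which was noticed in the data. In 131 genes transcribed from the W strand of chromosome XI, the alleles of the hybrid were far from their homozygotes: the SD across genes of allele minus homozygote was 2.24 for the S. mikatae allele and 2.65 for the S. cerevisiae allele. The 31 other chromosome strands had SDs of at most 1.11 for the S. mikatae allele and at most 1.18 for the S. cerevisiae allele. Across the 131 genes the deviations of both alleles went together (r = 0.67), whereas across the other 4428 genes they did not (r = -0.0009), and both alleles were at least 4-fold below their homozygotes in 23 of the 131 genes (17.6%) and in 12 of the 4428 (0.271%). UGP1, which makes the UDP-glucose used for glycogen and cell wall and was named after its values were seen, is such a gene, with 0 and 1.56 for the S. mikatae allele, against 694 and 630 in S. mikatae homozygotes, and 3.59 and 1.71 for the S. cerevisiae allele, against 521 and 470 in S. cerevisiae homozygotes.

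The homozygotes correlated with each other as well on this strand (r = 0.745) as elsewhere (r = 0.722). All 3 hybrids of the series showed it, with an SD of 2.24 for the S. mikatae allele, 2.70 for S. paradoxus and 2.52 for S. bayanus on this strand, against 0.781, 0.784 and 0.922 over the other genes. The cause was not tested. Genes of this strand are named as such below, and the main counts are also given without them.

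**Figure D1:**
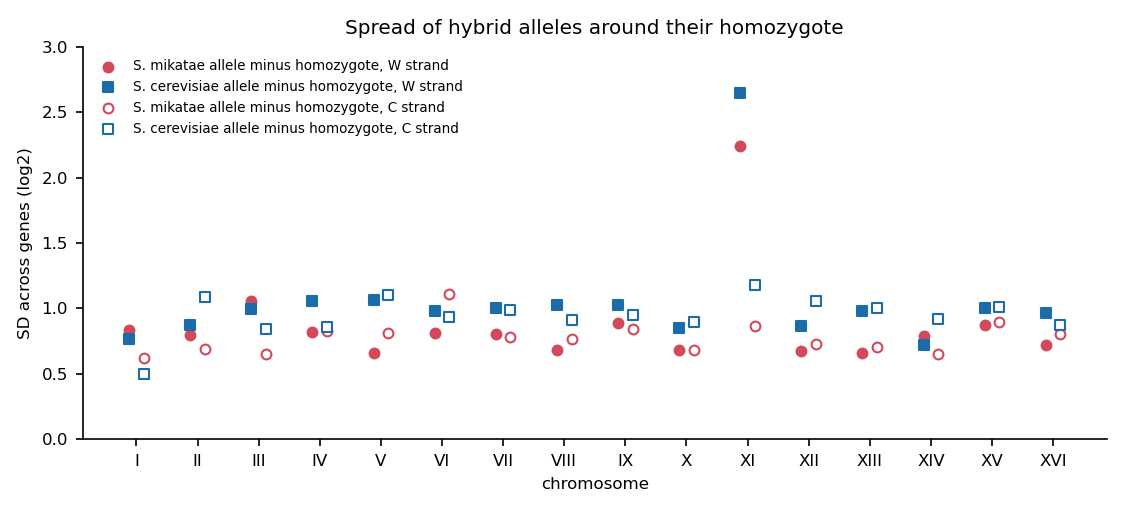
Spread of hybrid alleles around their own homozygote by chromosome and strand. Each point is the SD across genes of the log2 difference, allele minus homozygote, for the S. mikatae allele (circles) or the S. cerevisiae allele (squares), with filled points for the W strand and open points for the C strand. The W strand of chromosome XI stands at 2.24 and 2.65, and every other chromosome strand lies at or below 1.18.

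Total divergence was wide. P passed an adjusted p of 0.05 (limma with Benjamini-Hochberg adjustment over all 4559 genes) in 1271 genes (27.9%), of which 543 were higher in S. mikatae (11.9%) and 728 lower (16.0%). C passed in 1024 genes (22.5%), of which 504 were higher for the S. mikatae allele (11.1%) and 520 lower (11.4%). T passed in 5 genes (0.11%), with 1 higher (0.0219%) and 4 lower (0.0877%), while an unadjusted p under 0.05 was reached by 638 genes (14.0%), 290 with T above 0 (6.36%) and 348 below 0 (7.63%). The median over all genes was -0.13 for P, -0.04 for C and -0.10 for T, and T was above 0 in 45.1% of genes.

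T combines all 8 columns, and its SE is larger than that of P or C in every gene. The SD across genes that the libraries shared was 1.49 for P, 1.43 for C and 0.79 for T, so that the *trans* part varied less between genes than the *cis* part. With the spread estimated from all 18 libraries of the series, T was called in 99 of 4567 genes (2.17%), 44 higher (0.963%) and 55 lower (1.2%). Without the W-strand genes of chromosome XI that fit called 75 of 4436 genes (1.69%), and the fit on the 8 columns called 0 of 4428, with 603 at an unadjusted p under 0.05 and a lowest adjusted p of 0.0605. A fit that kept both alleles of a hybrid library as a block also called 0 genes for T (622 unadjusted), as did each fit with 1 library left out (513 to 631 unadjusted). C was called in 0 genes when either hybrid library was left out, with 1206 genes unadjusted without replicate 1 and 1168 without replicate 2, where a single library carried both alleles.

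Genes were also sorted by size alone, as a description without a test. A part counted as present at a log2 size of at least 1 (2-fold) on which the libraries agreed: both hybrid libraries on the same side of 0 for C, and all 4 pairings of homozygote libraries on the same side of both hybrid ratios for T. Of 4555 genes, after leaving out 4 marker loci, 1116 were *cis* only (24.5%), of which 512 were higher in S. mikatae (11.2%) and 604 lower (13.3%). *Trans* only were 469 genes (10.3%), 189 with T above 0 (4.15%) and 280 below 0 (6.15%). Opposing were 413 (9.07%), 162 with T above 0 (3.56%) and 251 below 0 (5.51%), and reinforcing were 122 (2.68%), 49 higher (1.08%) and 73 lower (1.6%). Neither part was present in 1970 genes (43.2%), and in 465 (10.2%) the libraries did not agree. Without the W-strand genes of chromosome XI the counts were 1090 *cis*, 457 *trans*, 118 reinforcing and 384 opposing of 4424.

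Because C enters T with a minus sign, an error in the hybrid libraries by itself makes a gene look opposing. When C was taken from 1 hybrid library and T from the other, opposing genes numbered 438 or 454 and reinforcing genes 386 or 382, in place of 413 and 122. Likewise the correlation of C with T across genes was -0.35 with shared libraries and -0.08 or -0.09 with separate ones. The separate ones rest on single hybrid libraries. Taken from covariances of libraries not shared, over the SDs that the libraries shared, the correlation was -0.19. The excess of opposing over reinforcing genes was far smaller where the hybrid libraries were not shared. With 1 hybrid library for each part the rule of agreement between libraries was also looser. *Trans* genes numbered 724 or 707 there, in place of 469. Genes whose libraries did not agree numbered 182 or 145, in place of 465. How far the smaller excess came from the looser rule was not tested. Of the 413 opposing genes, 252 (61.0%) had an absolute P under 1, so that the species differed by less than 2-fold while their alleles differed by more.

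**Figure D2:**
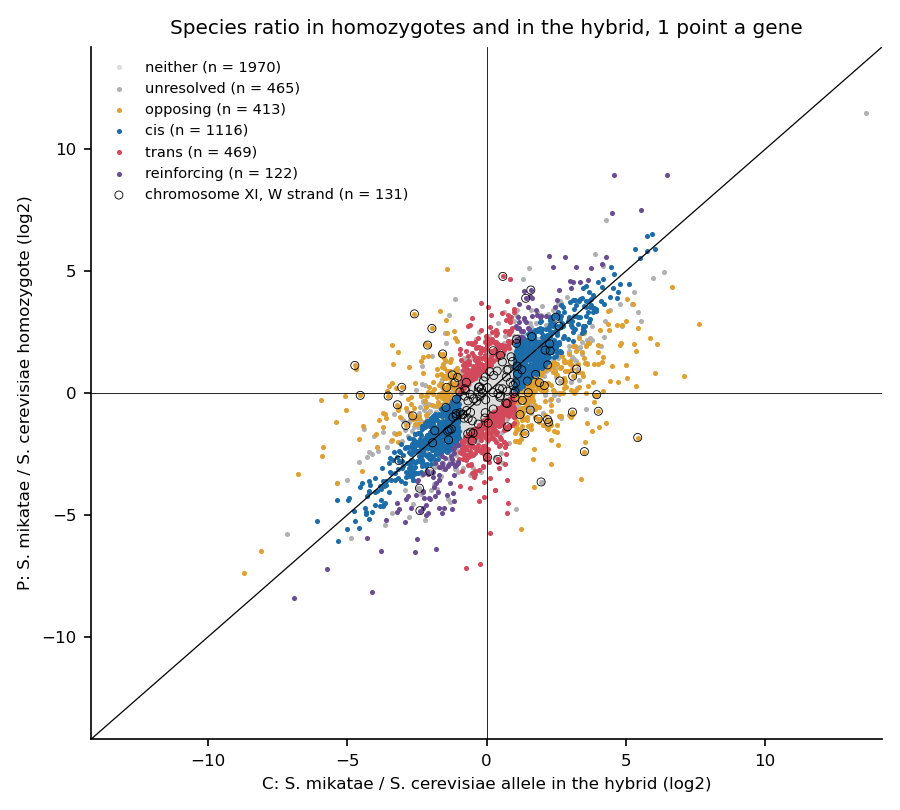
Species ratio in homozygotes (P, vertical axis) against that of the alleles in the hybrid (C, horizontal axis), both as log2 of S. mikatae over S. cerevisiae, with 1 point a gene, coloured by class by size. Genes on the diagonal have equal ratios in both settings (T of 0), *cis* genes lie along it away from the centre, *trans* genes lie along the vertical line at C of 0, and black rings mark the W-strand genes of chromosome XI.

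Most of the called divergence had the same direction in the hybrid. Among 1268 genes with P called, outside the marker loci, 92.0% had C of the same sign as P, and the median share of the *cis* part, the size of C as a share of the summed sizes of C and T, was 68.9%. It was over 50% in 67.0% of them. P and C correlated across genes at r = 0.69, which includes no shared library. By the tests, 651 genes had P and C both called and T not (the *cis* class by test), and 637 did without the W-strand genes of chromosome XI. As T was called in only 5 genes, a T not called does not show that the *trans* part was absent. By size, 503 of the 651 were *cis*, 63 reinforcing and 42 opposing.

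The largest *cis* differences were large and steady between replicates. CTR3 had levels of 1142 and 1064 in the S. mikatae homozygotes, against 9.35 and 12.9 in S. cerevisiae, and of 817 and 1026 for the S. mikatae allele, against 14.4 and 13.7 for the S. cerevisiae allele in the hybrid. P was 6.52 and C was 5.93, with limma adjusted p of 0.000472 and 0.000581, and T was 0.59 ± 0.40 (SE). The annotated Ty2 element YLRWTy2-1 ends 103 bases before the start codon of CTR3 in R64, and 148 of the 150 bases of CTR3 printed above lie inside it. Ty elements are retrotransposons of yeast, and their ends are long terminal repeats. Of 4551 genes with a position, 112 (2.46%) had an annotated Ty element or long terminal repeat within 1000 bases upstream of the start codon, and the share was 2.78% in *cis* and 2.13% in *trans* genes.

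HOR7 had 2786 and 2658 in S. mikatae, against 44.9 and 42.8 in S. cerevisiae homozygotes, and 2554 and 1643 for the S. mikatae allele, against 26.9 and 32.5 for the S. cerevisiae allele. BPL1, the ligase that attaches biotin to carboxylases, had 5138 and 7270 in S. mikatae, against 117 and 97.8 in S. cerevisiae, and 7822 and 7249 against 102 and 183 for the alleles in the same order. In both genes the groups did not overlap in either setting, and T was -0.14 ± 0.41 for HOR7 and 0.05 ± 0.50 for BPL1 (SE). MIP6, an RNA-binding protein that associates with the mRNA export receptor, was also higher in S. mikatae (P 6.46, C 5.76). PHM6, a gene of the phosphate regulon, and the uncharacterized YEL023C were lower in S. mikatae (P -5.23 and -6.08, C -6.07 and -5.35), and a long terminal repeat is annotated 816 bases upstream of PHM6 and 545 bases upstream of MIP6. Of these 6 genes, all had P and C past an adjusted p of 0.05 in limma, with YEL023C the weakest at 0.0262 for C.

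Allele scores farther apart still were found in PHO3 and RSC30. Reads had been kept only where they mapped to 1 place. What the scores of RSC30 at or near 0 in S. cerevisiae say of its level was not tested. PHO3, an acid phosphatase that serves thiamine uptake, had 3.05 and 0 in S. mikatae, against 305 and 371 in S. cerevisiae homozygotes, and 1.59 and 1.56 for the S. mikatae allele, against 962 and 1226 for the S. cerevisiae allele. P was -7.39 (limma adjusted p = 0.00172) and C was -8.72 (0.00185). RSC30, a DNA-binding component of the RSC chromatin remodeller, had 11141 and 1737 in S. mikatae, against 0 and 1.36 in S. cerevisiae, and 16292 and 9808 for the S. mikatae allele, with the S. cerevisiae allele listed at 0 in both hybrid libraries. T was 1.33 ± 0.93 for PHO3, which fell in the opposing class by size, and -2.14 ± 1.26 for RSC30 (SE), whose libraries did not agree on T, and neither passed an unadjusted p of 0.05 in limma.

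GAL80, the repressor of the galactose pathway, showed a smaller *cis* difference with tight replicates. It had 93.6 and 64.3 in S. mikatae, against 447 and 476 in S. cerevisiae homozygotes, and 96.8 and 103 for the S. mikatae allele, against 495 and 512 for the S. cerevisiae allele. P was -2.56 and C was -2.32, both called, and T was -0.23 ± 0.38 (SE). The ergosterol genes ERG3, a sterol desaturase (P -2.04, C -2.66), and ARE1, a sterol esterifying enzyme (P 2.62, C 3.45), were likewise called for both ratios with T not called.

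The 5 genes with T called all had an adjusted p of 0.0499 in limma. PRM5 encodes a membrane protein induced by pheromone and by cell wall stress. It had levels of 0.761 and 0.835 in the S. mikatae homozygotes, against 248 and 222 in the S. cerevisiae homozygotes, and of 22.2 and 18.7 for the S. mikatae allele, against 17.9 and 32.5 for the S. cerevisiae allele. The alleles overlapped in the hybrid and lay between the homozygotes, with T of -6.80 ± 0.61 (SE) and C of -0.24. The other 4 S. cerevisiae homozygote libraries of the series, scaled in the fit of all 18, had 124 to 392, against 258 and 288 for replicates 3 and 4 in the same scaling.

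KCC4, a protein kinase of the bud neck that monitors septin assembly, had the same pattern. It had 21.3 and 30.9 in S. mikatae, against 600 and 539 in S. cerevisiae homozygotes, and 357 and 248 for the S. mikatae allele, against 359 and 353 for the S. cerevisiae allele. T was -4.16 ± 0.43 (SE). With the spread from all 18 libraries its adjusted p was 0.198 and it was no longer called, whereas the other 4 genes were called there, at 8.6e-05 for PRM5, 0.00016 for GCV2, 0.0218 for WBP1 and 0.0375 for URA1.

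In the other 3 genes the ratio changed sign between homozygotes and hybrid. GCV2, a subunit of the mitochondrial glycine decarboxylase complex, had 107 and 124 in S. mikatae, against 298 and 315 in S. cerevisiae homozygotes, and 314 and 544 for the S. mikatae allele, against 30.5 and 18.8 for the S. cerevisiae allele. P was -1.40 and C was 4.05, so that T was -5.45 ± 0.53 (SE). WBP1, a subunit of the enzyme that transfers N-linked sugar chains to proteins, had 1788 and 1481 in S. mikatae, against 3622 and 3825 in S. cerevisiae, and 4687 and 4730 for the S. mikatae allele, against 1244 and 1298 for the S. cerevisiae allele, with T of -3.08 ± 0.31 (SE). URA1, the dihydroorotate dehydrogenase of pyrimidine synthesis, had 14327 and 11804 in S. mikatae, against 3409 and 3239 in S. cerevisiae, and 13081 and 10761 for the S. mikatae allele, against 60814 and 43702 for the S. cerevisiae allele, with T of 4.09 ± 0.40 (SE). URA1 lies on the W strand of chromosome XI, where hybrid alleles deviated in general.

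**Figure D3:**
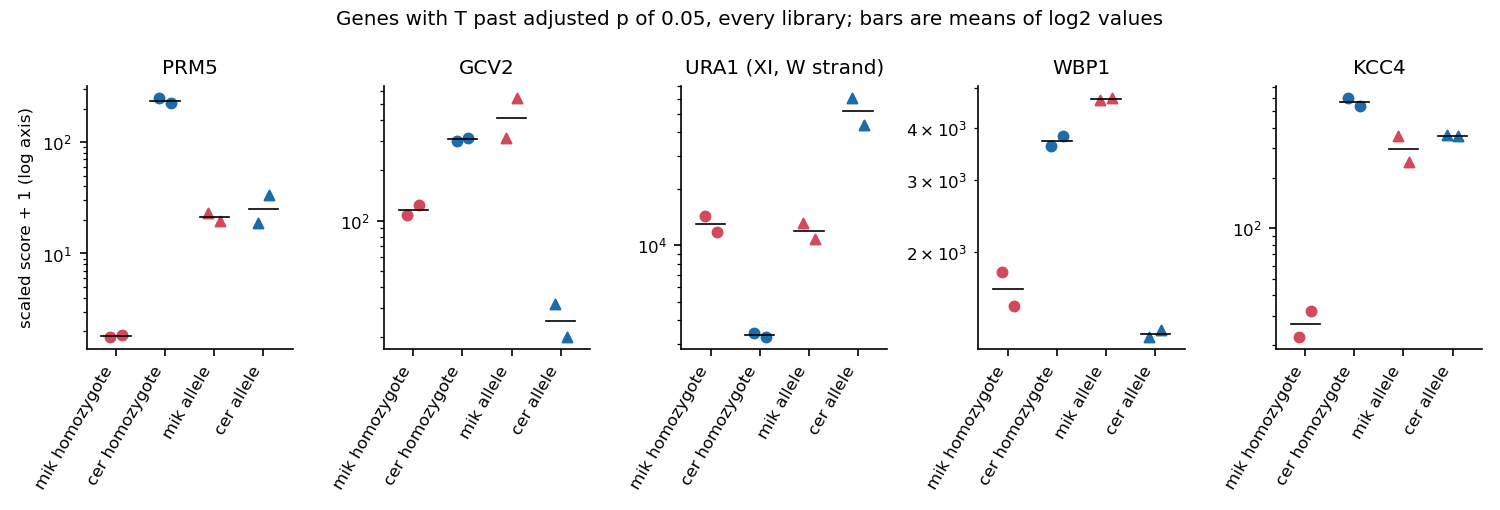
Scaled score plus 1 (log axis) of the 5 genes with T past an adjusted p of 0.05, in every library. Red circles are S. mikatae and blue circles S. cerevisiae homozygotes, triangles are the alleles in the hybrid, and bars are means of the log2 values. In PRM5 and KCC4 the 2 alleles are level while the homozygotes are far apart, and in GCV2, URA1 and WBP1 the order of the species is turned round in the hybrid.

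The *trans* class by size was led, by the size of T, by ARO9, YDR109C, VPS74, ALY1, KCC4 and ATP4. ARO9, an aminotransferase of aromatic amino acid breakdown, had 11.4 and 5.84 in S. mikatae, against 250 and 174 in S. cerevisiae homozygotes, while its alleles overlapped at 55.6 and 220 against 77.2 and 53.1. T was -5.29 ± 0.98 (SE, adjusted p = 0.114 in limma, and 0.0129 with the spread from all 18 libraries). For VPS74, which holds sugar-transferring enzymes in the Golgi, T of -4.26 rested on 1 S. cerevisiae library at 44326 beside 2295 in the other, and ALY1, an adaptor for the removal of permeases, lies on the W strand of chromosome XI. Across the *trans* class the S. cerevisiae allele moved farther from its homozygote than the S. mikatae allele did in 63.8% of genes, against 56.6% of all genes. The share was similar in the reinforcing (62.3%) and opposing (62.5%) classes. Genes just inside the threshold were NOP16 (T -1.00) and CNB1 (T 1.00, W strand of chromosome XI), and just outside AFG1 and VTC4 (both -1.00), while for C they were SLK19 (-1.00) and GPX2 (1.00) inside, UTP23 (1.00) and PAM18 (-1.00) outside, each equal to 1 after rounding.

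Reinforcing genes had both parts in the same direction. VTC3, a subunit of the polyphosphate polymerase, had 129 and 98.5 in S. mikatae, against 2644 and 3432 in S. cerevisiae homozygotes, and 694 and 867 for the S. mikatae allele, against 2019 and 2510 for the S. cerevisiae allele (C -1.54, T -3.19). ZAP1, the activator of zinc uptake genes, had 32.7 and 25 in S. mikatae, against 731 and 816 in S. cerevisiae, and 47.6 and 37.4 against 187 and 104 for the alleles (C -1.70, T -3.00). CDC39, the scaffold of the Ccr4-Not complex, and RMD1 were also lower in S. mikatae in both parts (T -3.48 and -2.89), and UBP14, a protease that disassembles free ubiquitin chains, and YFL040W were higher in both (T 2.90 and 4.36). Of the 6, RMD1 alone had T called with the spread from all 18 libraries (limma adjusted p = 0.0204). YFL040W had 424 and 8621 for the S. mikatae allele in the 2 hybrid libraries.

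Opposing genes with the largest T were COM2, ATG3, SRL3, PRY2, YHB1 and GCV2. COM2, a zinc finger regulator, had 38.1 and 44.2 in S. mikatae, against 397 and 584 in S. cerevisiae homozygotes, and 508 and 136 for the S. mikatae allele, against 17.9 and 32.5 for the S. cerevisiae allele. ATG3, the enzyme that joins Atg8 to lipid in autophagy, had 241 and 523 in S. mikatae, against 171 and 284 in S. cerevisiae, and 621 and 515 against 1.79 and 5.14 for the alleles, so that homozygotes overlapped while alleles differed with C of 7.10 (limma adjusted p = 0.00194). YHB1, a flavohemoglobin that detoxifies nitric oxide, had 330 and 364 in S. mikatae, against 4440 and 5775 in S. cerevisiae, and 4621 and 986 against 646 and 668 for the alleles. SRL3 and PRY2 lie on the W strand of chromosome XI. In COM2, GCV2 and YHB1 the species ratio of the homozygotes was turned round between the alleles. In each the S. cerevisiae allele was far below its homozygote and the S. mikatae allele was above its own.

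The *trans* part was next described for 40 lists of genes of shared function, whose medians of T ran from -1.09 to 1.64 and whose medians of C ran from -0.59 to 1.90. The lists hold 937 tested genes of 1186 listed, counted once for each list that names them. In 28 of the 40 the median of T was farther from 0 than that of C, while C was the wider measure across single genes. The lists were chosen with earlier results of these data known. Whether other sets of genes differ in this was not tested.

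**Figure D4:**
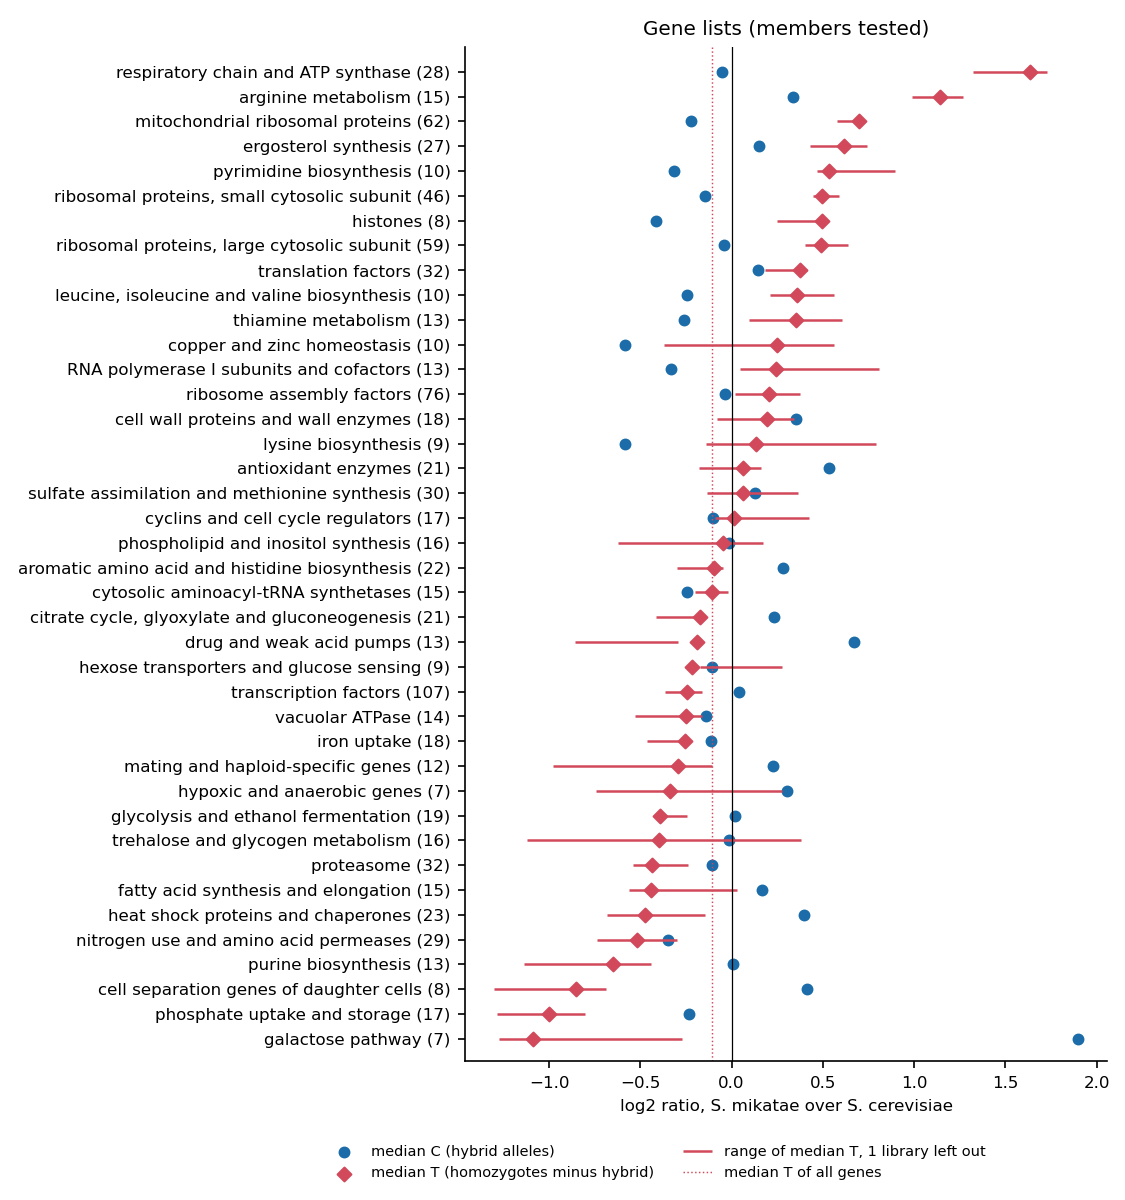
Median of C (circles) and of T (diamonds) over the tested members of each of 40 gene lists, with the number of members in brackets, on a log2 axis of S. mikatae over S. cerevisiae. Bars give the range of the median of T over the fits with 1 library left out. The respiratory list stands highest with T of 1.64, the phosphate list is near the foot at -1.00, and the dotted line is the median of all genes.

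Genes of the respiratory chain and ATP synthase had the highest median of T of the 40 lists. These proteins carry electrons from NADH and succinate to oxygen in the inner mitochondrial membrane and use the proton gradient to make ATP, and in rich glucose medium yeast keeps them low and ferments instead. Of 36 listed genes, 28 were tested. The median was -0.05 for C and 1.64 for T, against -0.10 for T over all genes, and 23 of the 28 had T above 0. P was called higher in 11 and lower in 2, against 11.9% and 16.0% of all genes. T was past an unadjusted p of 0.05 in 14, all of them above 0, against 6.36% of all genes in that direction, and was called with the spread from all 18 libraries in 4 genes, all above 0, against 0.963%. With 1 library left out at a time the median of T was 1.32 to 1.73.

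The movement was in the S. cerevisiae alleles. The median difference between allele and homozygote was 1.68 for S. cerevisiae and -0.22 for S. mikatae. The median log2 level over the 28 genes was 10.37 and 10.39 in S. mikatae homozygotes, against 8.71 and 8.60 in S. cerevisiae replicates 3 and 4. In the hybrid it was 10.27 and 10.06 for the S. mikatae alleles, against 10.42 and 10.27 for the S. cerevisiae alleles. The other 4 S. cerevisiae homozygote libraries stood at 8.93 to 9.25, so that all 6 were below every other column, and the median of T was 1.38 where all 6 entered P. The list holds no gene of the W strand of chromosome XI.

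COX6, a subunit of cytochrome c oxidase, had 1102 and 1918 in S. mikatae, against 267 and 347 in S. cerevisiae homozygotes, and 4205 and 4627 for the S. mikatae allele, against 10155 and 9153 for the S. cerevisiae allele (T 3.38 ± 0.46, SE), though T was not called with the spread from all 18 libraries (limma adjusted p = 0.419). Among genes named after their values were seen, COR1, a core subunit of complex III, had 343 and 342 in S. mikatae, against 59.2 and 61.1 in S. cerevisiae, and 232 and 279 against 215 and 229 for the alleles (T 2.30). COX8 had 1492 and 1446 against 355 and 357 in homozygotes, and 1903 and 1225 against 1170 and 1719 for the alleles (T 1.94). In COR1 and COX8 the homozygotes were far apart and the alleles level, and both were called with the spread from all 18 libraries (limma adjusted p = 0.041 and 0.0197), as was COX5A (T 3.19, adjusted p = 0.0201).

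CYC1, cytochrome c isoform 1, had a strong *cis* part under this *trans* part. It had 125 and 90.2 in S. mikatae, against 531 and 450 in S. cerevisiae homozygotes, and 82.5 and 109 for the S. mikatae allele, against 5895 and 5446 for the S. cerevisiae allele, with P of -2.19, C of -5.88 and T of 3.69 ± 0.40 (SE). The isoforms used when oxygen is scarce, COX5B and CYC7, were named after their values were seen. COX5B had 12.2 and 3.34 in S. mikatae, against 212 and 229 in S. cerevisiae, with P of -4.87, C of -4.10 and T of -0.77, and CYC7 had T of 0.81, neither T past an unadjusted p of 0.05. ATP4 (T 3.90) and ATP20 (T 3.50), subunits of ATP synthase, were less steady, with ATP4 at 5454 and 32477 in the 2 S. mikatae homozygotes and ATP20 at 4589 and 272 in the 2 S. cerevisiae homozygotes.

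CCAAT or its complement was found in the 300 bases around the start codon of 23 of the 28 genes (82.1%), against 44.1% of 4551 promoters of all genes. This motif was added after the values were seen. It was found in 48.8% of promoters of the *trans* class and 42.9% of the *cis* class. The Hap complex that binds it consists of Hap2, Hap3 and Hap5, which bind DNA, and Hap4, which activates. HAP2, HAP3 and HAP5 had T of 0.49, -0.67 and -0.80, none past an unadjusted p of 0.05. HAP4 had 670 and 655 in S. mikatae, against 776 and 668 in S. cerevisiae homozygotes, and 17.5 and 9.36 for the S. mikatae allele, against 131 and 193 for the S. cerevisiae allele. HAP4 lies on the W strand of chromosome XI, where hybrid alleles deviated in general, and what its hybrid scores say of its level there was not tested.

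Mitochondrial ribosomal proteins, which translate the few mRNAs of the mitochondrial genome, also had a median of T above 0. It was 0.70 over 62 tested genes and that of C was -0.22, with T above 0 in 53 genes, against 45.1% of all genes. T was past an unadjusted p of 0.05 in 10 above and 1 below 0, against 6.36% and 7.63% of all genes. This median of T was 0.45 where all 6 S. cerevisiae libraries entered P. The median log2 level was 8.75 and 8.66 in S. mikatae homozygotes, against 8.23 and 8.12 in S. cerevisiae replicates 3 and 4. Replicates 5 and 6 stood at 8.11 and 8.05, but replicates 1 and 2 at 8.96 and 9.04, above both S. mikatae homozygotes. The direction of the species difference in these levels thus depended on the S. cerevisiae libraries used. Reads of replicates 1 and 2 were filtered against the S. paradoxus genome in place of that of S. mikatae. The effect of this filter was not tested. MRPS35 had 359 and 546 in S. mikatae, against 244 and 251 in S. cerevisiae, and 116 and 248 against 544 and 1281 for the alleles (T 3.13, limma adjusted p = 0.0131 with the spread from all 18 libraries).

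Cytosolic ribosomal proteins also had more genes with T above 0, 47 of 59 in the large and 40 of 46 in the small subunit, against 45.1% of all genes. The medians of T were 0.49 and 0.50, and 0.67 and 0.78 where all 6 S. cerevisiae libraries entered P. The median log2 level of the small subunit was 13.27 and 13.16 in S. mikatae homozygotes. S. cerevisiae replicates 3 and 4 stood at 12.69 and 12.60. Replicates 1 and 2 stood at 12.04 and 12.01, and replicates 5 and 6 at 13.07 and 13.35. For the large subunit the level was 12.97 and 13.32 in S. mikatae, against 11.95 to 13.03 in the 6 S. cerevisiae libraries. These species differences thus depended on the S. cerevisiae libraries used. Reads had been kept only where they mapped to 1 place, so values of near-identical paralog pairs, common in these lists, are uncertain. RPS20, a single-copy gene, had 78064 and 48100 in S. mikatae, against 1694 and 1756 in S. cerevisiae homozygotes, and 53019 and 32375 for the S. mikatae allele, against 3151 and 2945 for the S. cerevisiae allele (P 5.15, C 3.77, T 1.38). Its difference was thus mainly in the *cis* part. The median of T of ribosome assembly factors was 0.21 over 76 genes, 0.02 to 0.37 with 1 library left out and 0.45 where all 6 S. cerevisiae libraries entered P, so its size was not steady, and 90.8% of their promoters held GATGAG, the core of the PAC element, against 20.6% of all.

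Arginine genes had medians of P and T above 0, while C was above 0 in 8 of 15. C was called higher in 2 and lower in 1, against 11.1% and 11.4% of all genes. Yeast makes arginine from glutamate through ornithine, under repression by arginine and activation by Gcn4 when amino acids run short. The list covers arginine metabolism and also holds the breakdown genes CAR1 and CAR2 (T 1.04 and 1.42). Both are in the *trans* class and among the genes with T past an unadjusted p of 0.05. Of 16 listed genes 15 were tested, and the medians were 1.18 for P, 0.34 for C and 1.14 for T, with T above 0 in 13. By size 4 genes were reinforcing, 4 *trans*, 2 opposing and 1 *cis*, against 2.68%, 10.3%, 9.07% and 24.5% of all genes. P was called higher in 7 and lower in 0, against 11.9% and 16.0% of all genes. T was past an unadjusted p of 0.05 in 6, all above 0, against 6.36% of all genes in that direction. The median of T was 0.99 to 1.27 with 1 library left out and 1.09 where all 6 S. cerevisiae libraries entered P.

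ARG1, argininosuccinate synthetase, had 1308 and 1270 in S. mikatae, against 1.87 and 1.36 in S. cerevisiae homozygotes, and 456 and 627 for the S. mikatae allele, against 7.18 and 3.42 for the S. cerevisiae allele. P was 8.95 (limma adjusted p = 0.000472), C was 6.48 (0.00113) and T was 2.48 ± 0.57 (SE, 0.147). ARG4, the argininosuccinate lyase of the next step, named after its values were seen, had 1373 and 1297 in S. mikatae, against 209 and 216 in S. cerevisiae, and 1273 and 1420 against 488 and 457 for the alleles (C 1.51, T 1.14). CPA1, a subunit of carbamoyl phosphate synthetase, also named afterwards, had 885 and 1174 against 439 and 459 in homozygotes, and 538 and 583 against 917 and 824 for the alleles (C -0.63, T 1.81). Of the regulators, GCN4, ARG80 and ARG81 had T of 0.03, -0.78 and 0.38, none past an unadjusted p of 0.05. TGACTC, the Gcn4 site, was in 7 of the 15 promoters (46.7%), against 8.66% of all.

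Phosphate genes had medians of P and T below 0. When phosphate is short, Pho81 inhibits the kinase Pho80-Pho85, Pho4 enters the nucleus, and transporters such as Pho84 and the polyphosphate polymerase of the vacuole (Vtc proteins) are made. Of 25 listed genes 17 were tested. The medians were -1.20 for P, -0.23 for C and -1.00 for T, and 4 of 17 had T above 0. P was called lower in 7 and higher in 1, against 16.0% and 11.9% of all genes, and T was past an unadjusted p of 0.05 in 6, all below 0, against 7.63% of all genes in that direction. With the spread from all 18 libraries T was called in 3, PHO81, PHO84 and VTC1, all below 0, against 1.2% of all genes. The median of T was -1.28 to -0.81 with 1 library left out and -0.71 with all 6 S. cerevisiae libraries.

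PHO81 had 53.3 and 86 in S. mikatae, against 711 and 548 in S. cerevisiae homozygotes, and 298 and 271 for the S. mikatae allele, against 402 and 356 for the S. cerevisiae allele (T -2.78 ± 0.44, SE). PHO84, the high-affinity phosphate transporter, had 1099 and 860 in S. mikatae, against 6850 and 6030 in S. cerevisiae, and 4151 and 3390 for the S. mikatae allele, against 3157 and 4741 for the S. cerevisiae allele (T -2.68 ± 0.42, SE). VTC1 had 390 and 444 in S. mikatae, against 3855 and 5330 in S. cerevisiae, and 859 and 839 against 3273 and 3212 for the alleles (C -1.93, T -1.51). In PHO84 the alleles were level and between the homozygotes, while in VTC1 a *cis* difference remained. PHO84 and VTC1 were named after their values were seen.

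Single members did not follow the list. PHM6 was the *cis* gene described above (T 0.84), and PHO87, a low-affinity transporter, was higher in S. mikatae in both settings, with 205 and 185 in S. mikatae, against 19.3 and 53.7 in S. cerevisiae, and 246 and 287 against 19.7 and 25.7 for the alleles. The homeodomain regulator PHO2 had T of -0.43 (unadjusted p = 0.708). CACGTG was in 5 of the 17 promoters (29.4%), against 3.01% of all, and TATAAA in 70.6%, against 43.7%.

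**Figure D5:**
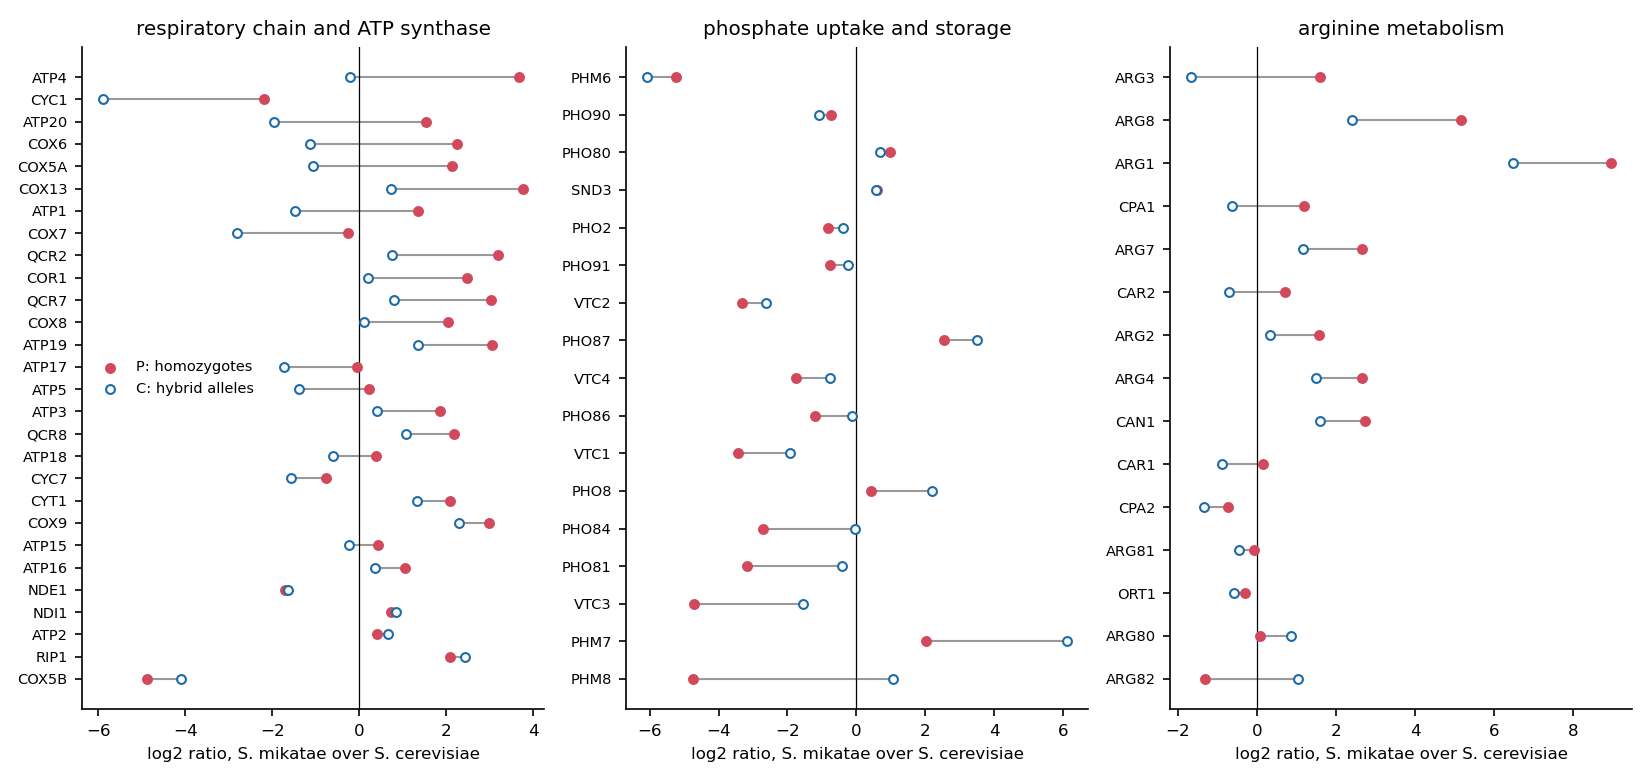
P (filled red) and C (open blue) of every tested member of 3 gene lists, as log2 of S. mikatae over S. cerevisiae, ordered by T, which is the distance of the red from the blue point. In the respiratory list most red points lie to the right of the blue ones (23 of 28 genes), in the arginine list 13 of 15 do, and in the phosphate list 4 of 17 do.

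Other lists held single genes with steady values. FTR1, the iron permease of the high-affinity uptake system, had 10242 and 8655 in S. mikatae, against 868 and 1083 in S. cerevisiae homozygotes, and 2481 and 2457 for the S. mikatae allele, against 1482 and 1909 for the S. cerevisiae allele. T was 2.72 ± 0.36 (SE, adjusted p = 0.0661 in limma and 0.00567 with the spread from all 18 libraries), in a list whose median of T was -0.26 over 18 genes. GDH1, which makes glutamate from ammonium, had 1372 and 1152 in S. mikatae, against 405 and 433 in S. cerevisiae, and 656 and 743 against 1183 and 1531 for the alleles (T 2.53, adjusted p = 0.0131 with all 18). GSY2, glycogen synthase, had 44.2 and 68.5 in S. mikatae, against 115 and 173 in S. cerevisiae, and 31.7 and 42.1 against 838 and 796 for the alleles (T 3.10, adjusted p = 0.00835 with all 18).

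ADE17, an enzyme of the last steps of purine synthesis, had 884 and 746 in S. mikatae, against 593 and 545 in S. cerevisiae, and 2448 and 1638 against 262 and 310 for the alleles (C 2.81, T -2.30). HSP82, the inducible Hsp90 chaperone, had 332 and 367 in S. mikatae, against 1628 and 1525 in S. cerevisiae, and 367 and 284 against 549 and 414 for the alleles (P -2.17, T -1.61). Of these genes, ADE17 had C called and HSP82 had P called, and T was called in ADE17 with the spread from all 18 libraries (limma adjusted p = 0.0291) and in HSP82 in neither fit.

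The galactose list had the largest median of C (1.90 over 7 genes, most of them low in glucose medium) and a median of T of -1.09. This median of T was -1.27 to -0.27 with 1 library left out, -0.63 with a pseudocount of 8 and 0.01 at a minimum mean of 100. That minimum left only GAL80 and LAP3 (T -0.23 and 0.25), so that the median of -1.09 rested on the low genes. Trehalose and glycogen genes had a median of T of -0.40 that ran from -1.12 to 0.38 with 1 library left out, so its sign was not steady. The list of 107 transcription factors had a median of T of -0.24 and of C of 0.04. T was past an unadjusted p of 0.05 in 6 of them above and 9 below 0, against 6.36% and 7.63% of all genes, and C was called higher in 12 and lower in 10, against 11.1% and 11.4%. These shares are near those of all genes, and T was called in limma in 0 of the 107 in either fit.

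Sequence and position separated the classes little. TATAAA was in 43.7% of all 4551 promoters, 44.2% of those of *cis* genes, 42.0% of *trans*, 49.2% of reinforcing and 46.5% of opposing genes. CCCCT, the stress response element, was in 21.6% of all and in 25.4% of *trans* genes, and in 56.2% of trehalose and glycogen genes. GAANNTTC, the heat shock element, was in 43.5% of chaperone promoters, against 12.3% of all. Motifs were searched on both strands, and a sequence could count for more than 1 motif. Within 20 kb of a chromosome end lay 26 of the 4551 genes, 3 of them *cis* and 5 *trans*, so that genes near chromosome ends are scarce in these tables.

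The marker loci gave a check of the assignment of alleles. LYS2, deleted in the S. cerevisiae parent of the hybrid, had 208 and 206 for the S. mikatae allele, against 1.79 and 0 for the S. cerevisiae allele. It had 301 and 284 in S. mikatae, against 129 and 130 in the S. cerevisiae homozygotes, which carry 1 copy. LEU2, URA3 and MET17, also present in 1 copy in the S. cerevisiae homozygote, had P of 2.14, 1.78 and 4.58 and C of 0.88, 0.67 and 0.56. These genes were left out of the class counts, and HIS3 was not analysed here.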

How the data were processed

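RNA of 6 libraries was measured by strand-specific sequencing of poly-A ends. Per the study's methods, the authors trimmed reads, mapped them with Bowtie to the genomes of both species and kept unique hits, which assigns hybrid reads to alleles, and removed hits that could come from internal priming. The submitters' processing notes name Bowtie 0.12.7 and CASAVA 1.7. Reads were summed from 50 bp before to 500 bp after each gene, trimmed at neighbours on the same strand. The deposited values are scores, the authors' read sums weighted for GC content and rounded to whole numbers, without scaling between libraries, so no count model was used and intervals of counting error were not computed.

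Each column was scaled by its upper quartile. Log2(scaled score + 1) was fitted with limma 3.58.1 (R 4.3.3, intensity trend) over 8 columns and 4559 genes with a mean of at least 10, with Benjamini-Hochberg adjustment and a threshold of 0.05. Scripts used Python 3.11.15, pandas 2.3.3, NumPy 2.4.6 and Matplotlib 3.10.9 and were tested on simulated data. Fold changes are on the log2(value + 1) scale and understate those of low genes. S. cerevisiae replicates 3 and 4 served as the homozygote pair, and all 6 were an alternative. By their deposited names, replicates 1 and 2 belong to the S. paradoxus pair and replicates 5 and 6 to the S. bayanus pair. Per the study's methods, reads were mapped to both genomes of a pair and kept only where the species was clear. The 6 libraries were thus not filtered alike, and how far this made them differ was not tested. The alleles of a hybrid library come from 1 culture, while homozygote numbers share no source: the correlation of deviations between alleles of a library was 0.0144. That pairing was fitted as a block. Other alternatives changed the scaling, filter, pseudocount, size threshold, trend and libraries, and leaving out the W-strand genes of chromosome XI was chosen after seeing the data.

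Members and lists were chosen with earlier results of these data known. Genes were named by rule: the marker loci, every gene with T called, the 6 of each size class with the largest T (for *cis*, C) at a mean of at least 100, up to 4 such members of a list with its regulators, and the 2 genes just inside and outside each threshold. All others are said to be named after their values were seen. Of 4559 gene IDs, 4555 matched a position and 4329 a symbol in RefSeq R64, from which promoters (250 bases before to 50 after the start codon) were read. Strains and genotypes are from the labels and the study's strain list.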

Additional observations from a re-analysis of the deposited data

Results flagged for a closer look

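In 5 genes the species ratio of homozygotes differed from that of the alleles in the hybrid by the test of that difference (limma, adjusted p = 0.0499 in each). The difference T was -6.80 in PRM5, -5.45 in GCV2, -4.16 in KCC4 and -3.08 in WBP1, and it was 4.09 in URA1, a W-strand gene of chromosome XI. The adjusted p lay close to the threshold in all 5, and no fit with 1 library left out called any of them. With the spread from all 18 libraries 4 of the 5 were called, all but KCC4. The S. cerevisiae homozygote was the only group with more than 3 libraries. Over its 6, no single library stood apart by Dixon's rule in any of 21 quantities examined (10 genes and 11 list medians). The largest gap between an outermost library and its neighbour was 0.557 of the range. That rule cannot see 2 libraries that depart together. In the mitochondrial ribosomal list, replicates 1 and 2 had median log2 levels of 8.96 and 9.04, against 8.05 to 8.23 in replicates 3 to 6. In the large cytosolic ribosomal list replicates 1 and 2 stood at 12.07 and 11.95, against 12.66 to 13.03. In the small one they stood at 12.04 and 12.01, against 12.60 to 13.35.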

How the results depend on the processing

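The count of genes with T called (5) was 0 without the filter on low scores (662 at an unadjusted p under 0.05 in limma), 0 with the replicate block (622), 0 without the W-strand genes of chromosome XI (603) and 0 in each fit with 1 library left out (513 to 631). It was 9 with a pseudocount of 8, 1 without the intensity trend, 42 with all 6 S. cerevisiae homozygote libraries, 99 with the spread from all 18 libraries, and 75 with that spread and without the W-strand genes. The fits with 42 and 99 calls shared 31 genes. The replicate block gave 1135 calls for P and 898 for C. With 1 library left out, P had 589 to 909 calls, C 0 to 975 and the *cis* class by test 0 to 459, the 0 in both being the fits without a hybrid library, where the remaining library was assumed to vary like the other groups. The *trans* class by size held 724 and 707 genes with C and T from separate hybrid libraries. The reinforcing class held 386 and 382 there, 70 with all 6 S. cerevisiae libraries and 49 at a size threshold of 1.5. The opposing class held 235 at that threshold, and 503 to 794 with 1 library left out, the 2 highest (743 and 794) without a hybrid library. The correlation of P with C was 0.632 to 0.671 with 1 library left out, and the correlation of C with T was -0.478 to -0.314, lowest without a hybrid library (-0.478 and -0.473), and was -0.0825 and -0.0871 with separate hybrid libraries. No result listed here changed its sign. Of 680 list medians under alternatives, 152 moved by more than 1 SD of the medians with 1 library left out. With 2 libraries a group many genes with a T of several log2 units did not pass the threshold, and scores carry no depth of whole reads.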
